A study of Danio rerio with 6 samples.

Results

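Beta crystallins are structural proteins that fill the fibre cells of the lens. Each is built from a pair of similar domains folded in the Greek key pattern, and acidic (beta A) and basic (beta B) forms assemble with each other into oligomers whose dense, short-range order keeps the lens transparent. They share an ancestor with the gamma crystallins, and in zebrafish, as in other vertebrates, their transcripts accumulate as lens cells elongate into fibres. Of the 10 zebrafish genes considered here (*cryba1a*, *cryba1b*, *cryba1l1*, *cryba1l2*, *cryba2a*, *cryba2b*, *cryba4*, *crybb1*, *crybb1l1* and *crybb1l2*), 8 had a probe set annotated to that gene and no other, among 19260 genes represented this way on the array. Each of the 8 had 1 such probe set. *cryba1l1* was covered only by a probe set that also names the protocadherin gene *pcdh2g6*, and *crybb1l1* had no row under its name.

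The values came from 6 arrays of whole zebrafish larvae at 4 dpf, 3 of WT larvae of the Tu strain and 3 of *il7r*-/- larvae, homozygous for a frameshift deletion made by CRISPR/Cas9 that truncates the interleukin 7 receptor before its transmembrane helix. Every RNA sample was a pool of larvae, and the mutants belong to 1 line that carries a single deletion allele. The comparison asks how the transcripts of these lens proteins differ between genotypes. The study described smaller eyes and shorter bodies in the mutants, measured at an earlier age than that of these arrays. All values are RMA values on the log2 scale, and a change is *il7r*-/- minus WT, so a negative change is a lower level in the mutants. Because whole larvae were used, fewer lens fibre cells and less RNA per fibre cell cannot be told apart. The transcript of *il7r* itself did not serve as a check of the genotype, since its probe set lay near the bottom of the scale in both groups (1.65 in WT and 1.59 in *il7r*-/- larvae). Pearson's correlation over all probe sets ranged from 0.979 to 0.980 within the mutant group and reached 0.977 for the first pair of WT arrays, whereas WT replicate 3 correlated at 0.965 with each of that pair.

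The beta crystallins were lower in *il7r*-/- larvae by value, but no single gene passed the test. The change was negative in all 8 measured members and its median was -0.91, while 55.0% of all genes had a change below 0 and the median over all genes was -0.02. In 6 of the 8, the highest *il7r*-/- array was lower than the lowest WT array, which was the case for 13.4% of all genes. None of the 8 was called by limma's moderated test (two-sided, with a p under 0.05 after Benjamini-Hochberg adjustment across the 75212 probe sets, and at least a 1.5-fold difference), a rule that called 0.182% of all genes lower. At an unadjusted p under 0.05 and the same fold, 7 of the 8 were lower in limma, against 2.35% of all genes, and 6 of the 8 were lower by the methods' t-test, against 1.98%. The genes were chosen with earlier results of these arrays known, so these counts describe the family and are no independent support for its direction.

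**Figure D1:**
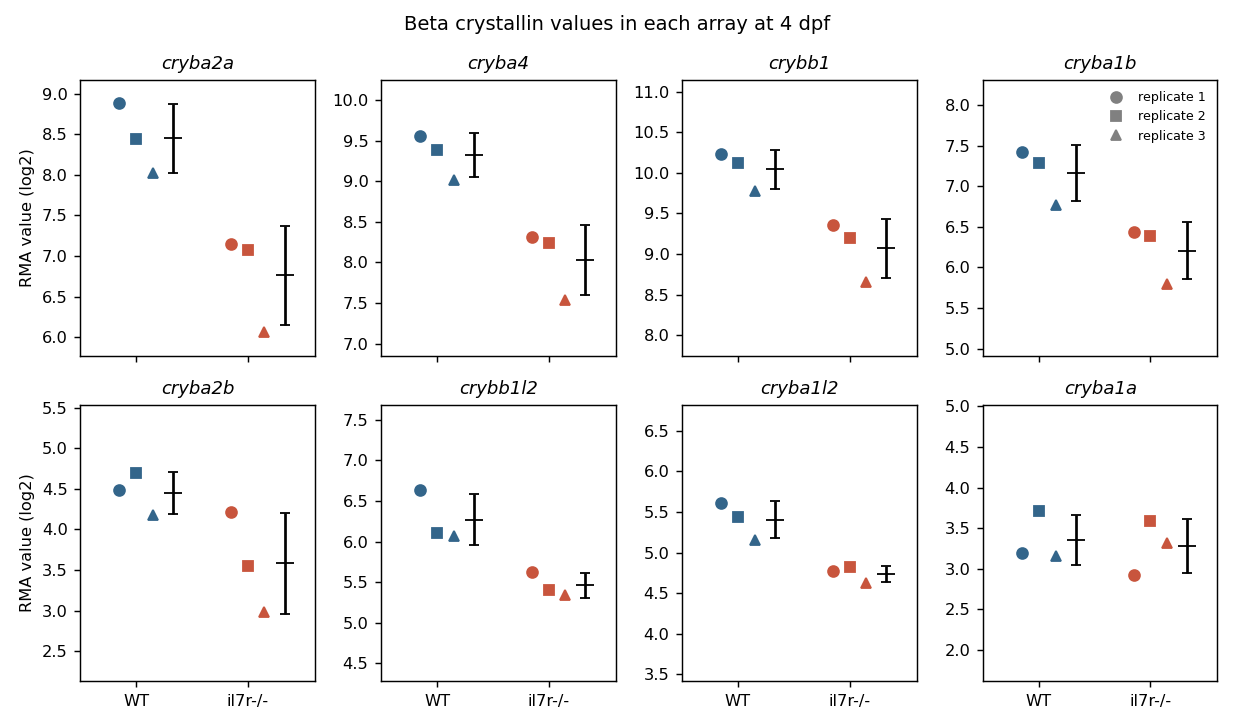
RMA values (log2, y axis, each panel spanning the same range of values) of the 8 measured beta crystallins in 3 WT and 3 *il7r*-/- arrays. Symbols mark the replicates and black bars the mean ± SD. In 6 panels all *il7r*-/- points lie below all WT points, and the groups overlap in *cryba2b* and *cryba1a*.

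Among the acidic beta crystallins, the widest difference was in *cryba2a*. Its values were 8.88, 8.44 and 8.02 in WT replicates 1 to 3 and 7.15, 7.07 and 6.06 in *il7r*-/- replicates 1 to 3. The groups were separated by 0.87, more than in any other member, and *il7r*-/- replicate 3 lay well below the other mutant arrays. WT larvae averaged 8.45 ± 0.43 and mutants 6.76 ± 0.61 (SD, n = 3 each), which gave a change of -1.69 (standard error 0.35, 95% interval -2.52 to -0.86, adjusted p = 0.151 from limma), or 31.1% of WT.

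*cryba4*, another acidic beta crystallin gene, had the second widest difference. It measured 9.56, 9.39 and 9.02 in the WT arrays and 8.31, 8.24 and 7.54 in the *il7r*-/- arrays. No mutant array reached the lowest WT array, and replicate 3 was again the lowest of its group on either side. WT larvae averaged 9.32 ± 0.28 and mutants 8.03 ± 0.43 (SD, n = 3 each), which gave a change of -1.29 (standard error 0.25, 95% interval -1.88 to -0.70, adjusted p = 0.127 from limma), or 40.8% of WT. When limma was fitted only to the 20806 probe sets with a single gene name, an alternative added once the data had been seen, *cryba4* was the single member called (adjusted p = 0.0421), where 0.909% of all genes were called lower. *cryba2a* followed with an adjusted p of 0.0548 in that fit, and the other 6 members ranged from 0.0664 to 0.891.

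*cryba1b* is one of several zebrafish genes related to mammalian CRYBA1. Its values were 7.42, 7.29 and 6.77 in WT and 6.44, 6.38 and 5.80 in *il7r*-/- larvae. The groups did not overlap, and the gap of 0.33 between them was smaller than the range within either group (0.65 and 0.64). Limma gave a change of -0.95 (standard error 0.24, 95% interval -1.53 to -0.38, adjusted p = 0.213 from limma), or 51.6% of WT.

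The related gene *cryba1l2* had a smaller change with a tighter spread. It measured 5.61, 5.44 and 5.16 in WT and 4.77, 4.82 and 4.63 in *il7r*-/- larvae. The 3 mutant arrays lay within 0.19 of each other and all below the WT arrays. The change was -0.66 (standard error 0.15, 95% interval -1.01 to -0.31, adjusted p = 0.176 from limma), or 63.1% of WT.

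In *cryba2b*, whose symbol pairs it with *cryba2a*, the groups overlapped. Its values were 4.48, 4.69 and 4.18 in WT and 4.22, 3.55 and 2.98 in *il7r*-/- larvae. *il7r*-/- replicate 1 lay above WT replicate 3, while the other mutant arrays lay below all WT arrays. The change was -0.87 (standard error 0.32, 95% interval -1.62 to -0.11, adjusted p = 0.358 from limma), and the values of the mutant arrays spread over 1.24, the widest range within a group of any member. Without *il7r*-/- replicate 3 the change was -0.565.

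*cryba1a*, also related to CRYBA1, was the other member whose groups overlapped. It measured 3.20, 3.71 and 3.16 in WT and 2.93, 3.59 and 3.32 in *il7r*-/- larvae. The arrays of both genotypes were interleaved. The change was -0.08 (standard error 0.22, 95% interval -0.61 to 0.46, adjusted p = 0.923 from limma), and its sign turned without WT replicate 2 (0.10) or without *il7r*-/- replicate 1 (0.098). Its mean over the 6 arrays, 3.32, was the only one of the 8 below 3.905, the bound of the dimmest tertile of genes. An array resolves differences poorly there, so this interval bounds the change of a dim signal. *cryba2b* was close to that bound, with a mean of 4.02 over the 6 arrays. Its mutant arrays averaged 3.58, below the bound, which also limits what its change can show.

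Among the 10 genes, the basic beta crystallins with their own probe set were *crybb1* and *crybb1l2*. *crybb1*, which encodes a basic subunit, had values of 10.23, 10.12 and 9.77 in WT and 9.35, 9.19 and 8.66 in *il7r*-/- larvae. All mutant arrays lay below all WT arrays, with a gap of 0.42. WT larvae averaged 10.04 ± 0.24 and mutants 9.07 ± 0.36 (SD, n = 3 each), which gave a change of -0.97 (standard error 0.22, 95% interval -1.49 to -0.46, adjusted p = 0.178 from limma), or 50.9% of WT.

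*crybb1l2*, a gene related to *crybb1*, measured 6.63, 6.11 and 6.07 in WT and 5.63, 5.41 and 5.34 in *il7r*-/- larvae. The groups did not overlap, and WT replicate 1 lay above the other WT arrays. The change was -0.81 (standard error 0.18, 95% interval -1.25 to -0.37, adjusted p = 0.181 from limma), or 57.0% of WT.

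The probe set that names *cryba1l1* and *pcdh2g6* together measured 8.65, 8.63 and 7.98 in WT and 7.46, 7.38 and 6.80 in *il7r*-/- larvae. Its groups did not overlap either, and limma gave a change of -1.21 with a standard error of 0.25 (adjusted p = 0.158). Which of these genes, a lens crystallin or a neuronal adhesion molecule, gave the signal cannot be told apart with this probe set, so it was not counted.

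Beta crystallin genes outside the 10 did not all have the same direction. *crybgx*, a zebrafish gene related to the beta and gamma crystallins, measured 7.38, 6.56 and 6.19 in WT and 5.74, 5.77 and 5.11 in *il7r*-/- larvae. Its groups did not overlap, and limma gave a change of -1.17 with a standard error of 0.33 (adjusted p = 0.259). *crybb2* and *crybb3* encode basic beta crystallins, and *crybb1l3* is a further gene related to *crybb1*. Their changes were -0.08 in *crybb2* (95% interval -0.46 to 0.31), 0.15 in *crybb3* (-0.24 to 0.53) and 0.21 in *crybb1l3* (-0.09 to 0.52). In all 3 the groups overlapped, and *crybb2* and *crybb1l3* lay below the bound of 3.905 while *crybb3*, which averaged 5.09 in WT and 5.24 in mutant larvae, lay above it. With *crybgx* counted among them, 12 beta crystallin genes had their own probe set. Of these 12, 7 had all mutant arrays below all WT arrays, against 13.4% of all genes. The 7 were 6 of the members and *crybgx*, which was named after its values were seen. The median change over the 12 was -0.84.

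**Figure D2:**
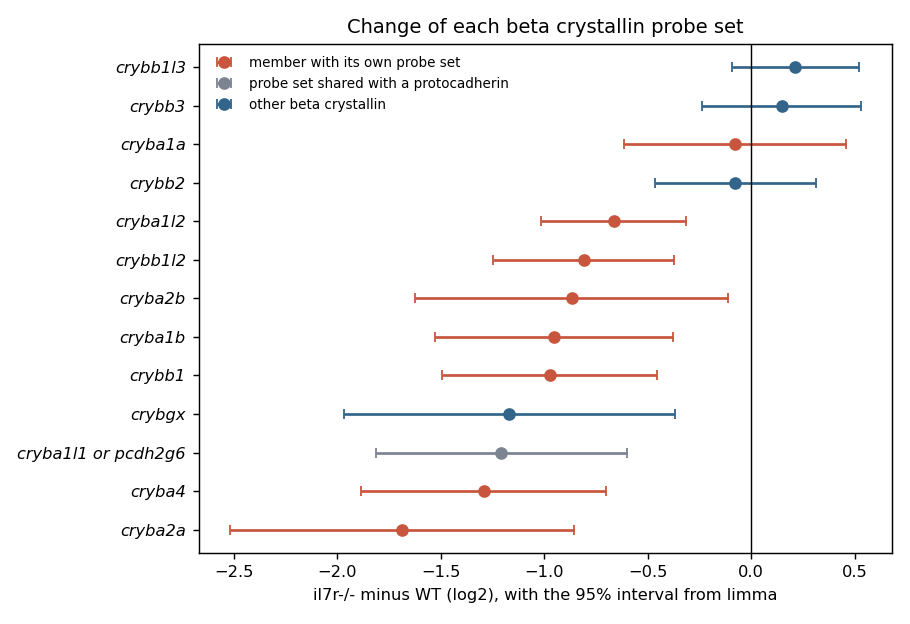
Change of each beta crystallin probe set (x axis, *il7r*-/- minus WT, log2) with its 95% interval from limma. The intervals of 7 members, of *crybgx* and of the probe set shared with *pcdh2g6* lie below 0, and those of *cryba1a*, *crybb2*, *crybb3* and *crybb1l3* include 0.

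Acidic and basic beta crystallin genes lie side by side in the zebrafish genome (GRCz12tu annotation), which allowed neighbours to be compared within each array. *cryba4* and *crybb1* are neighbours with no annotated gene between them, and so are *cryba1l2* and *crybb1l2*. The log2 difference of *cryba4* from *crybb1* was -0.75 to -0.67 in the WT arrays and -1.12 to -0.95 in the *il7r*-/- arrays. *cryba4* thus had a more negative change than *crybb1*, by -0.32, with no overlap between groups. For *cryba1l2* against *crybb1l2* the changes differed by 0.15, and the groups overlapped. *cryba2a* and *cryba2b*, which lie on different chromosomes, had changes that differed by -0.82, with no overlap of the within-array difference. *cryba1a* and *crybb1l3* have overlapping gene models in this annotation, and their changes differed by -0.29 with overlapping groups. The positions of their probes were not examined, so whether their signals are separate measurements is not known. An exact permutation test (two-sided) over the 6 arrays gave p = 0.1, 0.3, 0.1 and 0.4 for these 4 pairs in the order given, where 0.1 is the smallest p that 3 arrays against 3 allow, and the adjusted p over the 4 pairs was 0.2, 0.4, 0.2 and 0.4.

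The members shared the same pattern within each genotype. WT replicate 3 was the lowest WT array in all 8 members, and *il7r*-/- replicate 3 was the lowest mutant array in 7 of the 8, the exception being *cryba1a*. The share of all genes with this order was not computed. The means of the gamma crystallin, fibre membrane and cytoskeleton, cone, skin and skeletal muscle lists had the same order in both groups. Those of the alpha crystallins and the liver genes did not, so the order is not particular to the beta crystallins. Averaged over the 8 members, WT replicate 3 differed from the mean of the other WT arrays by -0.43, and *il7r*-/- replicate 3 from the mean of the other mutant arrays by -0.52. The mean over the members was nevertheless 6.52 in WT replicate 3 and at most 6.10 in an *il7r*-/- array, so the genotypes stayed apart by 0.42. Between arrays of the same replicate number the mean change was -0.90, -0.87 and -0.98, although the labels do not tie these numbers to shared batches. With replicates 1 and 2 alone, an alternative added once the data had been seen, the median change was -0.88 and no member was called (adjusted p from 0.147 in *cryba4* to 0.854 in *cryba1a*).

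Other tissues also moved in WT replicate 3. The 8 measured skin genes, among them the keratin genes *krt4*, *krt5* and *cyt1l*, had a mean of 7.36 in WT replicate 3 against 8.41 and 8.45 in WT replicates 1 and 2 and 7.85 to 8.15 in the *il7r*-/- arrays. WT replicate 3 was thus the lowest of the 6 arrays in the mean of the skin genes. In the mean of the measured beta crystallins it lay above every mutant array, although not in *cryba1a* or *cryba2b* taken singly. The 11 skeletal muscle genes, which include *pvalb1*, *actc1b* and *pvalb2*, ranged from 9.22 to 9.53 in WT and from 9.51 to 9.62 in *il7r*-/- larvae. Their median change was 0.17 and that of the skin genes was 0.00, and none of either list was called. Skin and muscle genes were thus measured above the bound of 3.905 in every array of these whole larvae. The part of such array differences in the lens values was not tested.

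**Figure D3:**
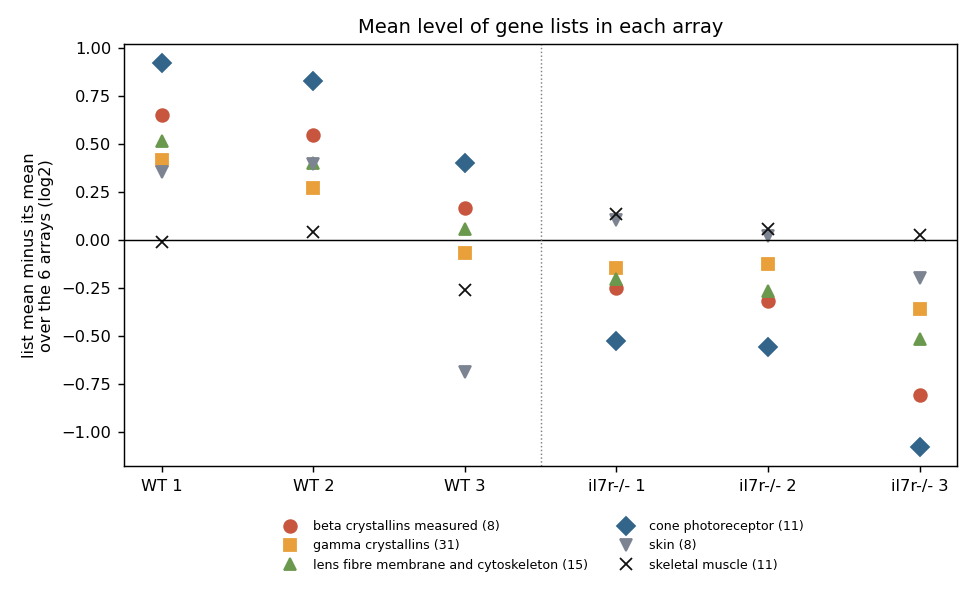
Mean level of gene lists in each array (y axis, list mean minus its mean over the 6 arrays, log2), with the number of genes in brackets and the dotted line separating WT from *il7r*-/- arrays. Beta crystallins lie above 0 in all WT arrays and below 0 in all *il7r*-/- arrays, while the skin genes are lowest in WT replicate 3.

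Other crystallins of the lens fibre had mixed changes over whole lists in which most genes were dim. Gamma crystallins are the small monomeric crystallins of the fibre core, and 31 of 41 listed genes were measured. In 11 of the 31 all mutant arrays lay below all WT arrays against 13.4% of all genes, and in 2 they lay above, against 8.84%. The median change was -0.33. Of the 31 genes, 22 had a mean below 3.905, where changes are poorly resolved, and their median change was -0.11. The 9 genes above that bound had a median change of -0.98. In 7 of these 9 all mutant arrays lay below all WT arrays, against 13.4% of all genes. The bound applied to the mean over all 6 arrays. *crygm2c* (4.87 in WT, 3.74 in mutants) and *crygn1* (4.69 and 3.89), both among the 7, passed it through the WT arrays. The share among all genes above the bound was not computed, so the count of 7 is a description only. The brightest gamma crystallins were *crygn2* (change -0.98), *crygm2b* (-0.91) and *crygm2d15* (-1.06).

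Genes of the lens fibre membrane and cytoskeleton had a median change of -0.85 over 15 measured genes, and in 10 of them the groups were separated with the mutant arrays lower, against 13.4% of all genes. Of the 15, 8 had a mean below 3.905, with a median change of -0.34. The 7 brighter genes had a median change of -1.01. Of these 7, 6 were separated with the mutant arrays lower, against 13.4% of all genes. *lim2.4*, among the 6, averaged 4.84 in WT and 3.82 in mutants, so it passed the bound of 3.905 through the WT arrays. Its change of -1.01 is the quoted median. The share among all genes above the bound was not computed. The fibre membrane gene *lim2.2* had a change of 0.06 with overlapping groups. *mipa* and *mipb*, which encode water channels of the fibre membrane, had changes of -1.25 and -1.01, and *bfsp1*, which encodes a beaded filament protein, had a change of -1.08. At an unadjusted p under 0.05 and a fold change over 1.5, 8 of the 15 were lower in limma, against 2.35% of all genes, and none was called after adjustment. The alpha crystallins, small heat shock proteins that act as chaperones in the lens, were all below 3.905. Among them *cryaa*, the lens form, had a change of -0.80 with separated groups, whereas *cryaba* and *cryabb* had changes of -0.07 and 0.20.

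Transcription factors of lens development had a median change of -0.28 over 12 measured genes. All mutant arrays lay below all WT arrays in 5 of them, against 13.4% of all genes. No member was lower in limma at an unadjusted p under 0.05 and a fold change over 1.5, against 2.35% of all genes. The fold threshold decided this for *pax6a*, *six3a*, *pax6b*, *six3b* and *prox1a*, whose unadjusted p ranged from 0.0025 to 0.036 in limma. None was called after adjustment. The brightest were *tfap2a* (change -0.34), *pax6b* (-0.41) and *pax6a* (-0.57), and many of these factors are also expressed in the retina and brain or, for *tfap2a*, in skin and neural crest. *foxe3* and *pitx3*, which act in the lens epithelium and early lens, had changes of -0.17 and -0.01, and *foxe3* was dim, with a mean below 3.905. *prox1a*, which acts in fibre elongation, had a change of -0.47 with overlapping groups. The rest of the list had changes of -0.54 (*six3a*), -0.42 (*six3b*), -0.22 (*hsf4*), -0.06 (*sox1a*), 0.06 (*mafaa*) and 0.11 (*sox1b*), where *mafaa* was dim. No difference between factors of the lens epithelium and of the fibres was tested.

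**Figure D4:**
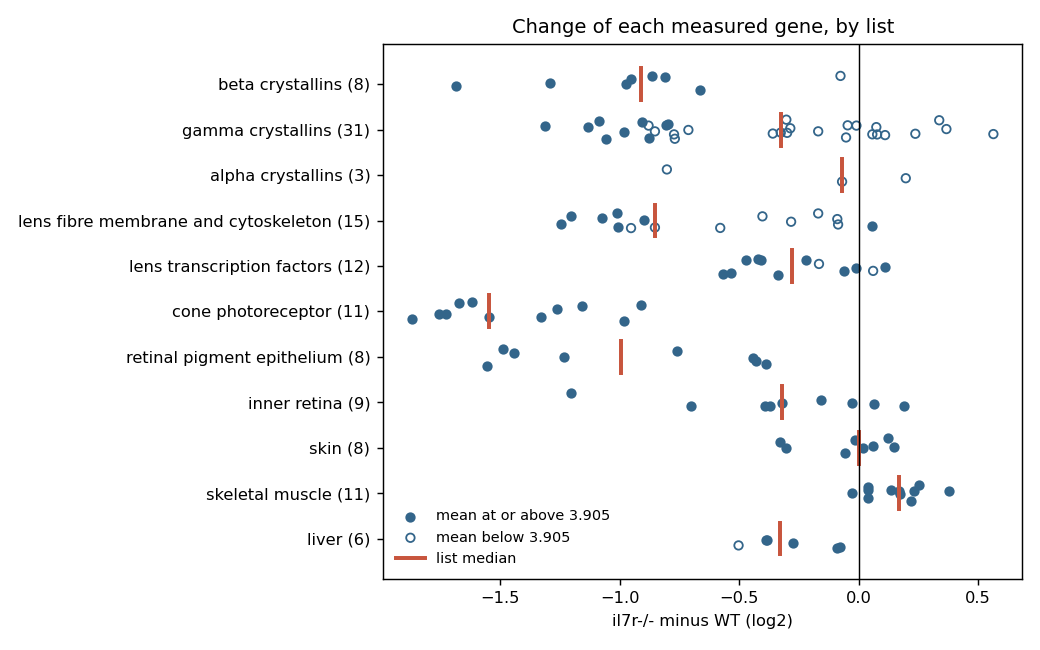
Change of each measured gene (x axis, *il7r*-/- minus WT, log2) by list, with the number measured in brackets, open symbols for genes with a mean below 3.905 and a vertical bar at the list median. The median was -0.91 for beta crystallins, -0.85 for fibre membrane and cytoskeleton genes and -0.28 for lens transcription factors.

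Markers of other tissues were examined in the same way. All 11 measured cone photoreceptor genes had every mutant array below every WT array, against 13.4% of all genes, with a median change of -1.55, and 2 of them fell in the test over all probe sets, which called 0.182% of all genes lower, *rcvrn3* (recoverin family) and *guca1c* (activator of guanylate cyclase). Among 8 genes listed for the retinal pigment epithelium or for pigment, 7 were separated in the same direction, against 13.4% of all genes. The median change of the 8 was -0.997, and whole larvae do not show where in the body the pigment signal arose. In the same test *rpe65a*, the retinoid isomerase gene, and *rgra*, an opsin-like receptor gene, fell. Whole larvae do not show either where in the body the signal of the inner retina list arose. Its median change was -0.32 over 9 genes. Of these, 4 were separated with the mutant arrays lower, against 13.4% of all genes. In 1, *gfap* (change 0.19), the mutant arrays were all higher, against 8.84%. In the same list *cabp5b*, expressed in bipolar cells, fell. Each of these 5 calls ended when any array other than WT replicate 3 was left out (adjusted p from 0.0618 to 0.186 in limma), and that of *rgra* also ended without WT replicate 3 (0.0607). The mean over the cone genes was 8.19 to 8.71 in WT and 6.71 to 7.27 in *il7r*-/- larvae, and WT replicate 3 and *il7r*-/- replicate 3 were the lowest of their groups there too. Liver genes, of which 6 were measured, had a median change of -0.33, and all 6 changes were below 0. In 4 of the 6 every mutant array lay below every WT array, against 13.4% of all genes, and none was called. Beta crystallins were not tested against these lists, so no difference between tissues is drawn from the medians.

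The genes with the profile most like the beta crystallins over the 6 arrays were not mainly lens genes. Likeness was measured as the root mean square distance between a gene's values and the mean of the 8 members, each centred on its own mean, among 9621 genes brighter than the median gene. The nearest were *slc38a5a*, an amino acid transporter gene, and *sh3bgrl2*, at distances of 0.046 and 0.047 on the log2 scale. They were followed by *bhlhe40*, a transcriptional repressor that takes part in the circadian clock (0.060), *insig1*, a regulator of sterol synthesis (0.077), and the gamma crystallin gene *crygn2* (0.087). Their changes were -0.86, -0.91, -1.0, -0.84 and -0.98 in this order. The values were not scaled, so a near gene had to have a change of similar size. These changes are therefore no separate result, and lens genes with a larger or smaller change ranked further away.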

How the data were processed

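RNA of 6 pools of larvae (3 WT, 3 *il7r*-/-) was hybridized by the authors to Affymetrix Zebrafish Gene ST arrays, and the submitters' processing notes name RMA (background correction, normalization between arrays, summary per probe set). The deposited values were read as log2 from their range (-0.02 to 13.09), since the base is not stated in the sources used here. Genome build and annotation are not given in the sources used here. Probe sets were named through the platform annotation (20806 name 1 gene, 855 several), and the brightest represented a gene. The genotypes were compared over all 75212 probe sets with limma 3.58.1 in R 4.3.3 (lmFit and eBayes, default settings). The procedure was tested on simulated data. The labels do not say whether the pools came from separate clutches, while the study's methods name batches of larvae as biological replicates. The number of arrays limits the precision.

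The members and lists were chosen with earlier results of these data known. All measured members are named, with the 3 brightest or called genes of other lists, all measured lens transcription factors, and the 5 genes of most similar profile. *foxe3*, *pitx3*, *prox1a*, *mipb*, *lim2.2*, *gfap*, *cryaa*, *crybb2*, *crybb3*, *crybb1l3* and *crybgx* and the crystallin-named genes outside the lens were named for their role, after their values were seen. The remaining lens transcription factors were added later to complete that list. *crygm2c*, *crygn1* and *lim2.4* were named because their mutant means lay below the bound. Gene order came from the RefSeq table of GRCz12tu, which is not the build of the array. Alternatives were other tests, thresholds, normalizations and filters, blocking on replicate number, weighting arrays and leaving arrays out.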

Additional observations from a re-analysis of the deposited data

How the results depend on the processing

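No beta crystallin was called under any alternative that adjusted p over all probe sets. None was called either when the limma p-values were adjusted only over probe sets that name 1 gene (*cryba4*, adjusted p = 0.134). Without adjustment, 6 of the 8 members were called by the methods' t-test and 7 by limma, against 1.98% and 2.35% of all genes lower. The single member called with limma fitted only to probe sets of a single gene name was *cryba4* (adjusted p = 0.0421). That alternative was added once the data had been seen, and it called 0.909% of all genes lower. The median change of -0.91 lay between -1.09 and -0.75 when single arrays were left out, and between -0.97 and -0.88 under the other alternatives that could move it. Single changes kept their direction except in *cryba1a*, which ranged from -0.23 to 0.10 and turned to 0.10 without WT replicate 2 and 0.098 without *il7r*-/- replicate 1. The count of 224 probe sets called over the whole array was less stable. It was 2447 and 3 by the methods' t-test without and with adjustment, 3616 by limma without adjustment, 412 with an intensity trend and robust prior, 46 when adjusted over probe sets that name 1 gene, 370 when the probe sets of a gene were averaged, 6 with replicates 1 and 2 alone, and 5 to 293 without single arrays (15, 13, 5, 5 and 9 without WT replicates 1 and 2 and *il7r*-/- replicates 1, 2 and 3, and 293 without WT replicate 3). With the replicate number as a block it was 1, no beta crystallin was called and their median change was -0.91. Deviations of same-numbered arrays from their group means correlated at 0.047, 0.015 and 0.085 over 12842 genes. WT replicate 2 correlated better with another number (0.024). With 3 arrays per group, these correlations cannot tell whether arrays of the same number shared a batch. Signals below 3.905 limit what can be said of *cryba1a*, *crybb2*, *crybb1l3*, *foxe3*, *mafaa*, *cryl1*, *crym* and the alpha crystallins. The same holds for 22 of the 31 gamma crystallins and 8 of the 15 fibre membrane and cytoskeleton genes. In the *il7r*-/- arrays alone, the means of *cryba2b*, *crygm2c*, *crygn1*, *lim2.4* and *hsf4* were also below that bound.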

Other observations

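Genes that carry a crystallin name but are not lens fibre proteins had changes near 0. The quinone reductase-like gene *cryzl1*, the lambda crystallin gene *cryl1* and the mu crystallin gene *crym* had changes of -0.20, 0.09 and 0.05, where *cryl1* and *crym* had means below 3.905, and the beta-gamma domain genes *crybg1a*, *crybg1b* and *crybg2* had changes of -0.10, 0.16 and -0.12. None of the 6 measured genes of this list passed limma at an unadjusted p under 0.05 and a fold change over 1.5. By that rule 2.35% of all genes were lower. In 1 of the 6, *crybg1b*, all *il7r*-/- arrays lay above all WT arrays, against 8.84% of all genes.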
